A study of Homo sapiens with 29 samples.

Results

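The thioredoxin and peroxiredoxin genes described here are TXN, TXNRD1, TXNIP, SRXN1 and PRDX1 to PRDX6, taken by name from the deposited expression table. All 10 were found among its 23710 gene symbols, and all 10 passed the filter on low values in each fit. Their RNA was measured in 2 established human lung cancer cell lines, H460 and H2122, each mutant in KEAP1, which normally has the transcription factor NRF2 broken down. The groups have 3 RNA libraries each. H2122 cells carried a short hairpin against GFP (shGFP, the control) or NRF2 (shNRF2), with RNA taken after 24 h. H460 cells carried a hairpin against GFP, NRF2, NR0B1 or SNW1 (shGFP, shNRF2, shNR0B1, shSNW1), with RNA taken after 72 h. Other H460 cells were given DMSO, BPK29 or BPK9 for 12 h, the compounds at 30 µM, and both compounds are known here by their code names alone. NR0B1 is a nuclear receptor with no known ligand that acts mostly as a repressor, and SNW1 works in transcription and in the spliceosome. The study asked, per its series text, what changes when NR0B1 is lost in one line and NRF2 in both. The labels do not say whether the libraries of a group came from separate cultures, so p-values cover only how these libraries vary, and that variation may be technical.

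Thioredoxin (TXN) is a small protein that reduces disulfide bonds in other proteins and is itself reduced by thioredoxin reductase (TXNRD1), a selenoprotein that spends NADPH. TXNIP binds reduced thioredoxin and blocks it, and as an arrestin-like protein it also curbs glucose uptake. Peroxiredoxins destroy hydrogen peroxide with a reactive cysteine. PRDX1 and PRDX2 work in the cytosol, PRDX3 in mitochondria, PRDX4 in the endoplasmic reticulum, and PRDX5 in several organelles, and all of these draw on thioredoxin or a relative of it. PRDX6 has a single active cysteine and is recharged through glutathione. Sulfiredoxin (SRXN1) repairs peroxiredoxins whose cysteine was oxidized too far. TXN, TXNRD1, SRXN1 and PRDX1 are textbook NRF2 targets, and TXNIP is a textbook target of the glucose-sensing factors MondoA and ChREBP.

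The promoters of TXNRD1 and TXNIP are shown because these genes moved in opposite directions after NRF2 knockdown. RefSeq (build GRCh38.p14) gives start sites with upstream sequence for 8 of the 10 genes, in 11 windows. PRDX1 and PRDX6 had no window and were not searched. The 250 bases before each start were searched on both strands for 3 motifs. The antioxidant response element core, TGACNNNGC, is the site that NRF2 is known to bind. Both TXNRD1 windows hold it, the other 9 windows searched do not, and 10.9% of all 35116 windows do. A paired carbohydrate response element, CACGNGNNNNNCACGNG, stands in 1 of the TXNIP windows and in 0.0456% of all windows; its letters were chosen with the TXNIP promoter in view. The E box CACGTG, 1 form of either box of the paired element, stands in the windows of PRDX3 and PRDX4 and in 6.34% of all. Such a match is a description of the letters and not evidence of binding, and no match says only that these letters are not in the window. Capitals mark the matched motif, and each line runs 5′ to 3′ on the gene's strand.
TXNRD1, upstream start site, chr12:104215529-104215778, plus strand, core at -99 to -91: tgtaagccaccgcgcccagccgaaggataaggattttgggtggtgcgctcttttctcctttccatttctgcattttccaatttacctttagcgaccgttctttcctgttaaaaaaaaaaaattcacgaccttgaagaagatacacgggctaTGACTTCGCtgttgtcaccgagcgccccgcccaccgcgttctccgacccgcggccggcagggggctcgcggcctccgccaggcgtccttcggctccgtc
TXNRD1, downstream start site, chr12:104286782-104287031, plus strand, core on the opposite strand at -102 to -94: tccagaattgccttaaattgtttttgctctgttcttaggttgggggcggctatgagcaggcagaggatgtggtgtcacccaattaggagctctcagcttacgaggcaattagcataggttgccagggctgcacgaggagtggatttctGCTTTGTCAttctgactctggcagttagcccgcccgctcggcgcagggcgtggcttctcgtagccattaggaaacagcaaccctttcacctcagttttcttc
TXNIP, chr1:145996580-145996829, minus strand, paired element at -88 to -72: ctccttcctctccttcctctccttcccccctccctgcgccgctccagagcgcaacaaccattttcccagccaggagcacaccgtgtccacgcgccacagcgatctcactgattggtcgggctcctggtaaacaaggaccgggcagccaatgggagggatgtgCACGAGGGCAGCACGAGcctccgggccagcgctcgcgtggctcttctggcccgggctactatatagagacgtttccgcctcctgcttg

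Recovered from the deposited values, knockdown libraries held 16709893 to 24613434 reads and compound libraries 19112123 to 24871383, and each member had 1074 to 101728 reads in a knockdown library. The targeted transcripts were lower in their own knockdowns. NFE2L2, which encodes NRF2, ran from 57.5 to 59.5 FPKM in H2122 shGFP and from 25.8 to 27.5 in shNRF2, and from 41.5 to 44.3 in H460 shGFP and 25.8 to 27.9 in shNRF2. NR0B1 ran from 45.7 to 48.9 FPKM in H460 shGFP and from 17.2 to 19.0 in shNR0B1, and it was lower still, 8.82 to 9.35, in H460 shNRF2. SNW1 ran from 49.3 to 52.3 FPKM in H460 shGFP and from 30.9 to 34.3 in shSNW1. Epithelial markers (KRT8, KRT18, EPCAM, CDH1) summed to between 694 and 2027 FPKM in every knockdown library, whereas the lung lineage markers NKX2-1 and SFTPB were at or near 0. Markers of immune cells summed to at most 47.5 FPKM, except 105 to 109 in H2122 shNRF2, with CD3E at 0 in every group, and markers of fibroblasts and endothelium summed to between 5.98 and 16.6. In H460 the epithelial sum was 1072 to 1234 in shGFP and 694 to 806 in the knockdowns. The part of these markers in the results was not tested.

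All 10 genes were abundant. FPKM, fragments per kilobase of transcript scaled to depth, allows levels of different genes to be compared within the knockdown columns. PRDX1 was the highest of the 10 in all 6 knockdown groups and TXN the next, and their libraries did not overlap in any group. In H460 shGFP, PRDX1 stood at 1533 ± 53.9 FPKM (SD, n = 3) and TXN at 1150.2 ± 81.3, followed by TXNRD1, PRDX6, PRDX4, PRDX3, SRXN1, PRDX5, PRDX2 and TXNIP at 145 ± 3.27. Of the neighbours in that order, PRDX3 and SRXN1 overlapped. In H2122 shGFP the order was PRDX1, TXN, TXNRD1, SRXN1, PRDX3, PRDX6, PRDX5, PRDX2, PRDX4 and TXNIP, from 1138 ± 14.3 down to 70.8 ± 3.08 FPKM, with PRDX5 and PRDX2 overlapping. After NRF2 knockdown in H2122 the span narrowed to between 467 ± 11 FPKM for PRDX1 and 59.3 ± 0.96 for PRDX4, and TXN and PRDX5, TXNRD1 and TXNIP, and SRXN1 and PRDX6 overlapped as neighbours. The standard deviation of a gene within a group was between 0.183% and 7.80% of its mean.

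**Figure D1:**
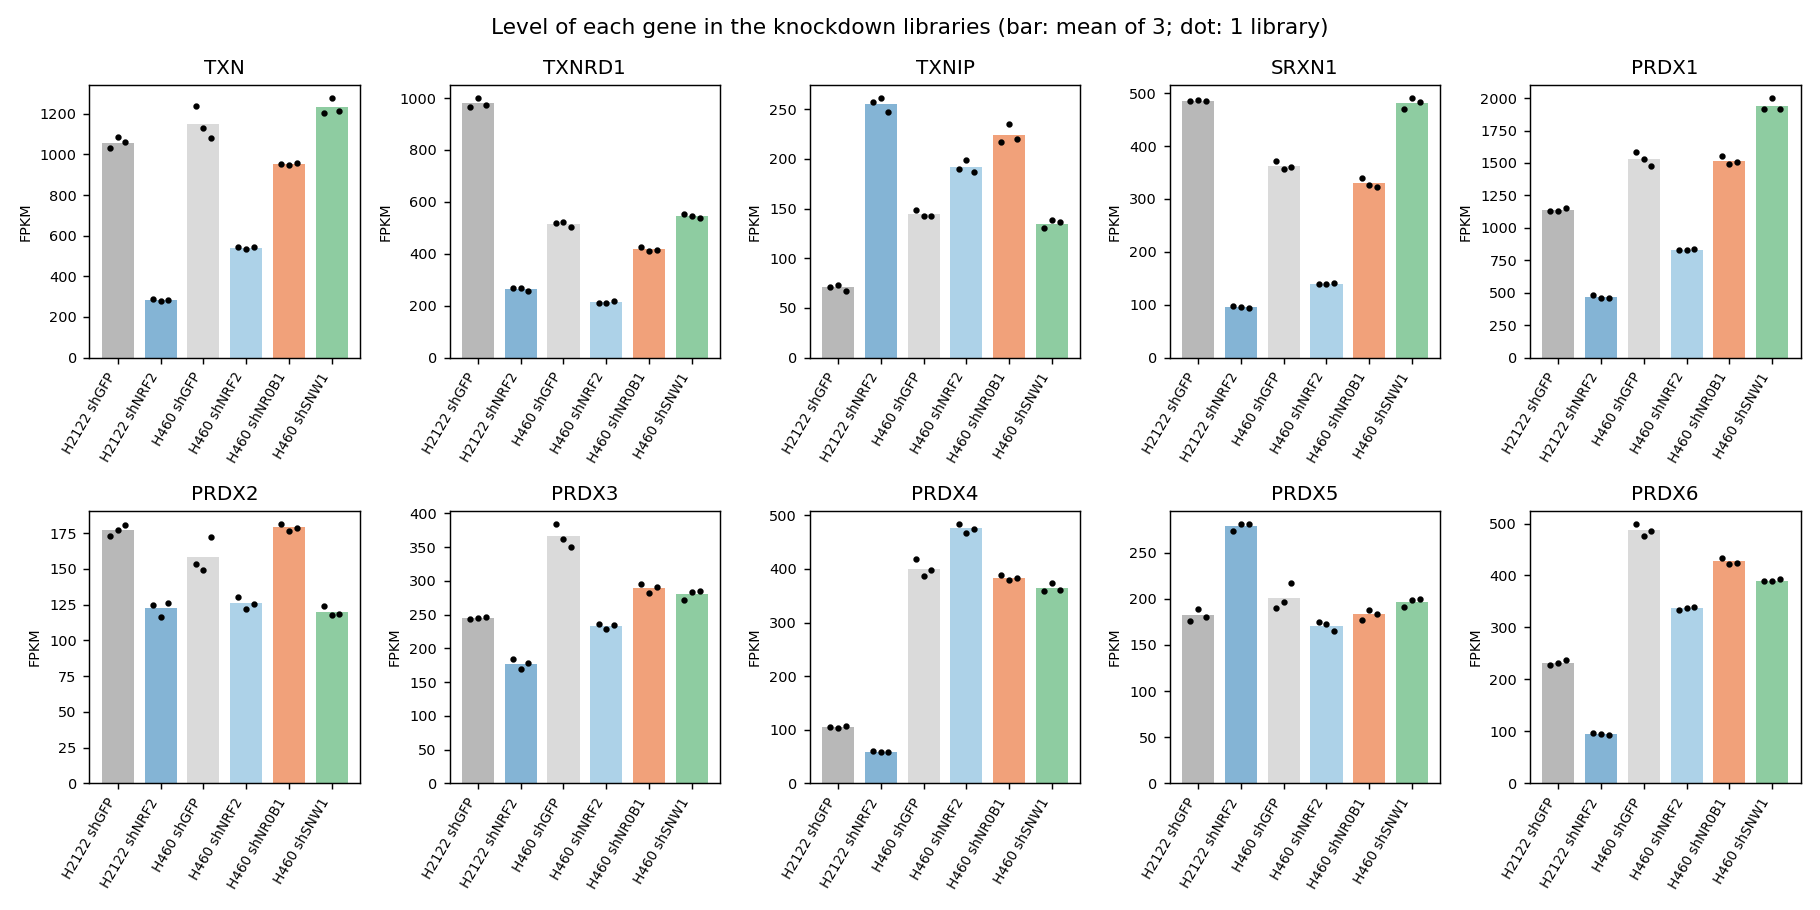
Level in FPKM (vertical axis, from 0, own scale per panel) of each of the 10 genes in the 6 knockdown groups (horizontal axis). Bars are means of 3 libraries and dots are single libraries. TXN, TXNRD1 and SRXN1 are low in both shNRF2 groups, and PRDX4 and PRDX6 are lower in H2122 than in H460. TXNIP is above shGFP in both shNRF2 groups, and within H460 it is highest in shNR0B1.

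NRF2 knockdown in H2122 lowered thioredoxin, its reductase, sulfiredoxin and 5 of the 6 peroxiredoxins, and raised TXNIP and PRDX5. That makes 8 genes lower and 2 higher of 10, where 38.5% of the 11710 genes tested were called lower and 48.8% higher (limma on log2(FPKM + 1), Benjamini-Hochberg adjusted p under 0.05). The median log2 fold change of the 10 was -1.05, against 0.09 over all genes. None of the 10 had overlapping shGFP and shNRF2 libraries, and the share of all tested genes without overlap was not computed. Other scalings of the libraries shifted the median of all genes by -0.14 to 0.13 in this comparison, and every one of the 10 calls held under each of them.

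SRXN1 fell furthest. Its shGFP libraries stood at 485, 487 and 485 FPKM, and the shNRF2 libraries at 96.8, 96.2 and 94.1. The log2 fold change was -2.33 ± 0.02 (SE; limma adjusted p = 2.32e-12), a 5.07-fold lower mean, and 99 of the 11710 tested genes, itself included, changed by at least as much. TXN went from 1029.8, 1086 and 1059 FPKM to 288, 279 and 282. TXNRD1 went from 964, 1000.5 and 974 FPKM to 267, 266 and 255. The fall was nearly equal, with log2 fold changes of -1.90 ± 0.0252 for TXN and -1.89 ± 0.0252 for TXNRD1 (limma adjusted p = 2.21e-11 for each). The TXNRD1 level per TXN level was 0.926 ± 0.00908 in shGFP and 0.929 ± 0.0259 in shNRF2 (n = 3 each), and these overlapped.

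TXNIP moved the other way. From 71.4, 73.5 and 67.4 FPKM in shGFP it went to 257, 261 and 247 in shNRF2, so that the lowest gene of the set in the control was close to TXN after knockdown. The rise was 1.83 ± 0.0345 (limma adjusted p = 8.82e-11), a 3.60-fold higher mean. The inhibitor's level per unit of thioredoxin, both in FPKM, went from 0.0669 ± 0.00293 to 0.901 ± 0.0329.

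Among the peroxiredoxins, PRDX1 and PRDX6 fell most in H2122. PRDX1 went from 1127, 1132 and 1154 FPKM to 479.6, 460.2 and 461 (log2 fold change -1.28 ± 0.0234, limma adjusted p = 7.47e-11). PRDX6 went from 228, 232 and 236 FPKM to 96.4, 94.6 and 93.9 (-1.28 ± 0.0227, limma adjusted p = 6.55e-11). Both means were 2.44-fold lower. The endoplasmic reticulum enzyme PRDX4 went from 105, 104 and 106 FPKM to 60.4, 58.7 and 58.7 (-0.81 ± 0.0228, limma adjusted p = 8.34e-10). Smaller falls were measured for the cytosolic PRDX2, from 173, 178 and 180.5 to 125, 116 and 126 FPKM (-0.53 ± 0.0333), and for the mitochondrial PRDX3, from 244, 246 and 247 to 184, 170.0 and 179 (-0.47 ± 0.0287).

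PRDX5 was the peroxiredoxin that rose in H2122. Its libraries went from 176, 189 and 181 FPKM in shGFP to 273, 281 and 281 in shNRF2, a 1.53-fold higher mean (0.61 ± 0.0281, limma adjusted p = 2.30e-08). PRDX5 overlaps TRMT112, a methyltransferase cofactor, in RefSeq, and the library kit does not mark strand, so reads of the overlap cannot be told apart. TRMT112 reached 178 FPKM at most and fell by 0.38 ± 0.0294 in the same comparison, opposite in sign to PRDX5. After NRF2 knockdown in H460 it fell by 0.21 ± 0.0400, and PRDX5 fell there by 0.23 ± 0.0453. The part of shared reads in the PRDX5 values was not tested. TXNRD1 overlaps EID3 and PRDX1 overlaps MMACHC in RefSeq as well. EID3 reached 14 FPKM and MMACHC 2.40 at most, and EID3 rose after NRF2 knockdown in H460 (2.01 ± 0.0649) while TXNRD1 fell.

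NRF2 knockdown in H460 lowered thioredoxin, its reductase and sulfiredoxin as well. Of the 10 genes, 8 fell and 2 rose, where 39.0% of 11938 tested genes were called lower and 40.9% higher. None of the 10 had libraries that overlapped between shGFP and shNRF2, and the share of all tested genes without overlap was not computed. The median log2 fold change was -0.59, against 0.01 over all genes. SRXN1 fell furthest here too, from 372, 357 and 361 FPKM to 138, 138 and 141 (-1.38 ± 0.0295, limma adjusted p = 1.72e-13). TXNRD1 went from 519, 521 and 505 FPKM to 210.2, 210.5 and 216 (-1.27 ± 0.0269, limma adjusted p = 1.51e-13). TXN went from 1240.1, 1128 and 1082 FPKM to 545, 535 and 544 (-1.08 ± 0.0416, limma adjusted p = 2.18e-11). TXNIP rose from 148, 143 and 143 to 189.7, 199 and 187 FPKM, 1.33-fold (0.41 ± 0.0378, limma adjusted p = 2.37e-07), and its level per unit of thioredoxin went from 0.126 ± 0.00606 to 0.355 ± 0.0151.

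PRDX1 fell in H460 from 1586, 1534 and 1478 FPKM to 827, 832 and 835 (-0.88 ± 0.0309, limma adjusted p = 9.16e-12), and PRDX3 from 385, 363 and 351 to 236, 229 and 234 (-0.65 ± 0.0359, limma adjusted p = 9.31e-10). PRDX6 went from 499.8, 475 and 486 FPKM to 334, 338 and 339 (-0.53 ± 0.0260). PRDX2 went from 153, 149 and 172 FPKM to 130.4, 122 and 126 (-0.33 ± 0.0468, limma adjusted p = 1.92e-05). PRDX5 fell as well, from 189.9, 196 and 217 FPKM to 175, 173 and 165 (-0.23 ± 0.0453, limma adjusted p = 0.000315). PRDX4 rose, from 419, 386 and 398 FPKM to 485, 468 and 475 (0.25 ± 0.0321, limma adjusted p = 7.16e-06). In H460 the exception among the peroxiredoxins was therefore PRDX4, and in H2122 it was PRDX5.

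The response to NRF2 knockdown was compared between the lines with an interaction term, the H2122 log2 fold change minus that in H460. All 10 genes differed, 7 with a lower and 3 with a higher value in H2122, where 34.3% and 37.4% of 12798 tested genes did so. Their median was -0.51, against 0.02 over all genes. The lines were sampled at 24 h and 72 h, so line and time cannot be told apart. TXNIP rose further in H2122, by 1.43 ± 0.0521 (limma adjusted p = 9.41e-11). The falls of SRXN1, TXN and TXNRD1 were deeper in H2122, with differences of -0.95 ± 0.0334, -0.81 ± 0.0582 and -0.62 ± 0.0377 (limma adjusted p = 6.60e-11, 5.36e-08 and 1.12e-08). PRDX4 and PRDX5 took opposite signs in the lines, with differences of -1.06 ± 0.0430 and 0.85 ± 0.0635 (limma adjusted p = 2.57e-10 and 8.68e-08). PRDX6 and PRDX1 fell further in H2122 (-0.75 ± 0.0365 and -0.40 ± 0.0400), and PRDX3 fell less there (0.18 ± 0.0504, limma adjusted p = 0.00587). The difference of PRDX2 was -0.20 ± 0.0709 (limma adjusted p = 0.0219) and was not called after rescaling to a common total (-0.14) or without H460 shGFP replicate 1 or 2, H460 shNRF2 replicate 1, H2122 shGFP replicate 3 or H2122 shNRF2 replicate 2 (-0.19 to -0.16).

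**Figure D2:**
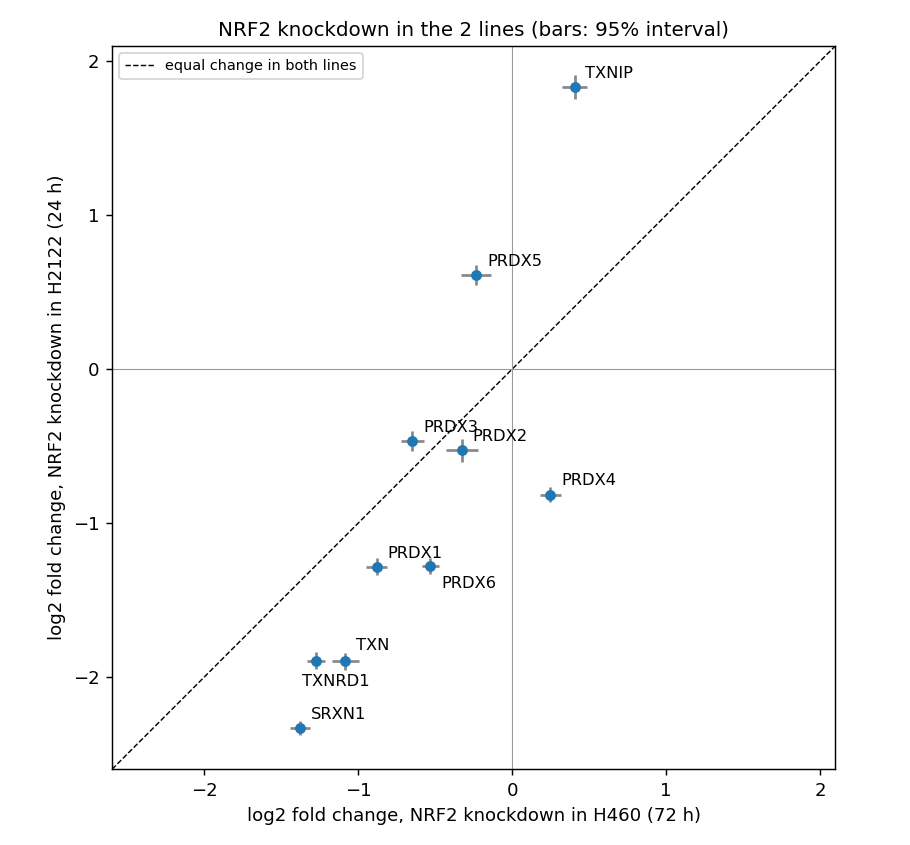
Log2 fold change after NRF2 knockdown in H2122 (vertical axis) against that in H460 (horizontal axis), 1 point per gene, with 95% intervals from limma. Points below the dashed line are lower in H2122; TXNIP and PRDX5 lie far above it, PRDX4 far below it, and PRDX4 and PRDX5 have opposite signs in the lines.

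The control levels of the lines differed as well. Between the shGFP groups, 7 genes were lower and 3 higher in H2122 than in H460, where 41.1% and 44.4% of 12798 tested genes were called. The median of the 10 was -0.29, against 0.03 over all genes. PRDX4 had the widest gap, 105 ± 1.29 FPKM in H2122 and 401 ± 16.4 in H460 (log2 difference -1.92 ± 0.0304, limma adjusted p = 1.49e-15), and PRDX6 (-1.07 ± 0.0258) and TXNIP (-1.02 ± 0.0368) were also lower in H2122. TXNRD1 was 1.90-fold higher in H2122 (0.93 ± 0.0266, limma adjusted p = 8.57e-13), and SRXN1 was higher by 0.42 ± 0.0236. TXN did not keep a direction across scalings. It stood at -0.12 ± 0.0412 as deposited (limma adjusted p = 0.0169) and at 0.069 when each library was rescaled to a common FPKM total (limma adjusted p = 0.146), and its shGFP libraries overlapped between lines. It was not called without H460 shGFP replicate 1 (-0.062) or H2122 shGFP replicate 1 (-0.098). PRDX5 likewise went from -0.14 (limma adjusted p = 0.00971) to 0.044 on a common FPKM total (adjusted p = 0.312). The TXNRD1 level per TXN level was 0.926 ± 0.00908 in H2122 and 0.449 ± 0.0264 in H460.

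The make-up of the peroxiredoxin pool also differed between groups. The summed level of the 6 peroxiredoxins was 2079 ± 26.0 FPKM in H2122 shGFP and 1199.7 ± 18.4 in shNRF2, and 3146 ± 74.5 in H460 shGFP and 2173 ± 12.1 in shNRF2. PRDX1 made up 54.7% ± 0.271 of that sum in H2122 shGFP and 38.9% ± 0.483 in shNRF2. PRDX5 took 8.75% ± 0.285 and 23.2% ± 0.718 of the H2122 sum in the same groups, which made it the next most abundant after PRDX1. In H460 the PRDX1 share went from 48.7% ± 0.942 to 38.2% ± 0.366 and that of PRDX4 from 12.7% ± 0.261 to 21.9% ± 0.263. The SNW1 knockdown had the highest PRDX1 share of the 6 groups, 59.0% ± 0.494. These shares describe RNA, and neither protein nor activity was measured.

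**Figure D3:**
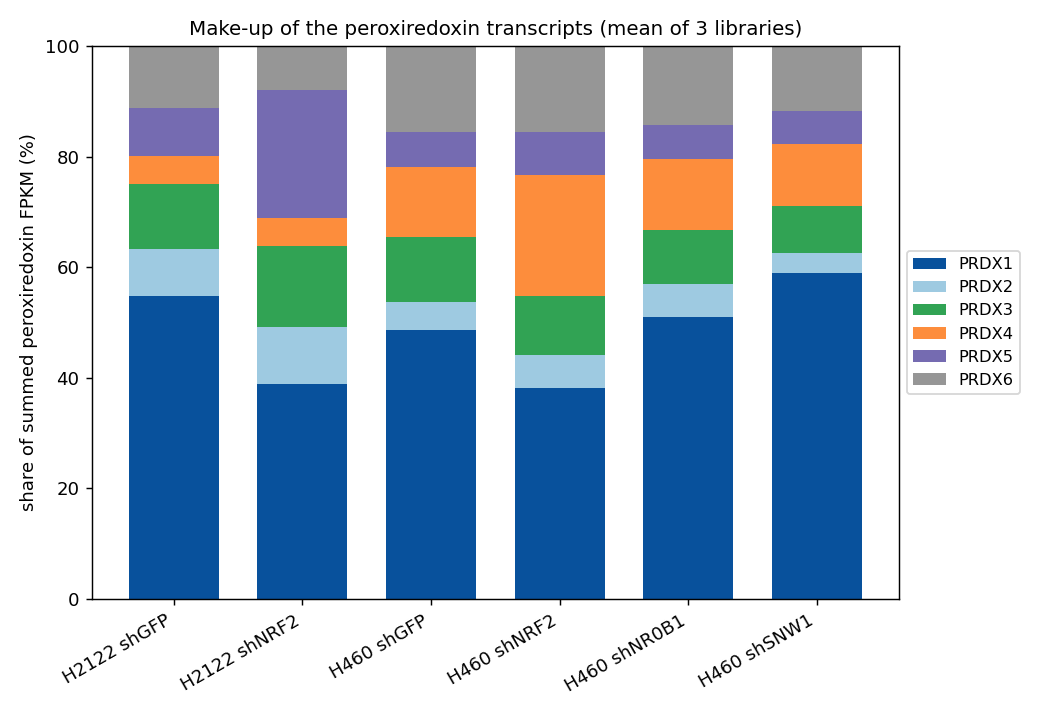
Share of each peroxiredoxin in the summed FPKM of all 6 (vertical axis, %), mean of 3 libraries, in the 6 knockdown groups (horizontal axis). PRDX1 holds 54.7% and 48.7% in the H2122 and H460 controls and 38.9% and 38.2% after NRF2 knockdown, with PRDX5 expanding in H2122 and PRDX4 in H460.

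NR0B1 knockdown in H460 lowered 6 genes and raised 2, with 2 not called, where 36.8% of 11938 tested genes were called lower and 33.1% higher; 52.7% of all calls were lower here, and 42.7% or 36.6% when libraries were rescaled to a common read or FPKM total. The median of the 10 was -0.14, against -0.02 over all genes. NFE2L2 itself was higher after this knockdown (0.33 ± 0.0379), and its part was not tested. TXNIP changed most, from 148, 143 and 143 FPKM to 217, 235 and 220.1 (0.63 ± 0.0378, limma adjusted p = 7.21e-09), a 1.55-fold higher mean. TXNRD1 went from 519, 521 and 505 to 426, 409 and 414 FPKM (-0.31 ± 0.0269, limma adjusted p = 2.90e-07), and TXN was at 951, 947 and 958 FPKM, all below its shGFP libraries (-0.27 ± 0.0416, limma adjusted p = 5.97e-05). PRDX3 fell to 296, 282 and 290.2 FPKM (-0.34 ± 0.0359, limma adjusted p = 1.78e-06), and PRDX6 (-0.19 ± 0.0260) and SRXN1 (-0.14 ± 0.0295) fell. PRDX2 rose to 182, 177 and 179 FPKM, above its shGFP libraries at 153, 149 and 172 (0.18 ± 0.0468, limma adjusted p = 0.00389).

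PRDX1, the most abundant gene of the set, was not called after NR0B1 knockdown. Its libraries at 1554, 1492 and 1505 FPKM overlapped the controls (-0.01, 95% interval -0.08 to 0.05, limma adjusted p = 0.696), and it was called higher, at 0.12, on a common FPKM total. PRDX4 was not called either (-0.06 ± 0.0321, limma adjusted p = 0.0938), though it was called without shGFP replicate 2 (-0.089). It was also called lower with median-ratio scaling (-0.085) and with voom (-0.087). The falls of SRXN1 and PRDX5 (-0.13 ± 0.0453) were not called on a common total (-0.059 and -0.052), and PRDX5 was also lost without shGFP replicate 3 (-0.075) or shNR0B1 replicate 1 (-0.11). On a common FPKM total neither these nor PRDX6 (-0.059, limma adjusted p = 0.0609) were called. The NRF2, NR0B1 and SNW1 comparisons in H460 share the same 3 shGFP libraries.

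SNW1 knockdown in H460 lowered 5 genes and raised 4, with 1 not called, where 36.4% of 11938 tested genes were called lower and 30.8% higher; 54.2% of all calls were lower, and 43.5% or 41.3% on a common read or FPKM total. The median of the 10 was -0.07, against -0.03 over all genes. NFE2L2 was higher here too (0.40 ± 0.0379), and its part was not tested. SRXN1 and PRDX1 rose. SRXN1 went to 469, 491 and 483 FPKM, all above its controls (0.40 ± 0.0295, limma adjusted p = 5.39e-08), and PRDX1 to 1914, 2001 and 1913 (0.34 ± 0.0309, limma adjusted p = 4.19e-07). PRDX2 fell to 124, 118 and 119 FPKM (-0.39 ± 0.0468), PRDX3 to 271, 283 and 285 (-0.39 ± 0.0359) and PRDX6 to 389, 389 and 393 (-0.32 ± 0.0260), with limma adjusted p = 5.78e-06, 5.58e-07 and 1.61e-07. TXN (0.10 ± 0.0416, limma adjusted p = 0.0438), TXNRD1 (0.09 ± 0.0269) and TXNIP (-0.10 ± 0.0378) shifted by 6.13% to 7.20% of the control mean. The TXN libraries overlapped the controls, and its call was lost with a replicate block (limma adjusted p = 0.0508) or without shGFP replicate 2 or 3 or shSNW1 replicate 2 or 3 (0.059 to 0.11). That of TXNIP was lost without shGFP replicate 1 or shSNW1 replicate 1 or 3 (-0.11 to -0.075) and on a common read total (-0.020, limma adjusted p = 0.655), and that of TXNRD1 without shSNW1 replicate 1 (0.076). PRDX4 fell by 0.13 ± 0.0321 and was not called on a common total (-0.054), and PRDX5 was not called (-0.03, 95% interval -0.13 to 0.06).

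**Figure D4:**
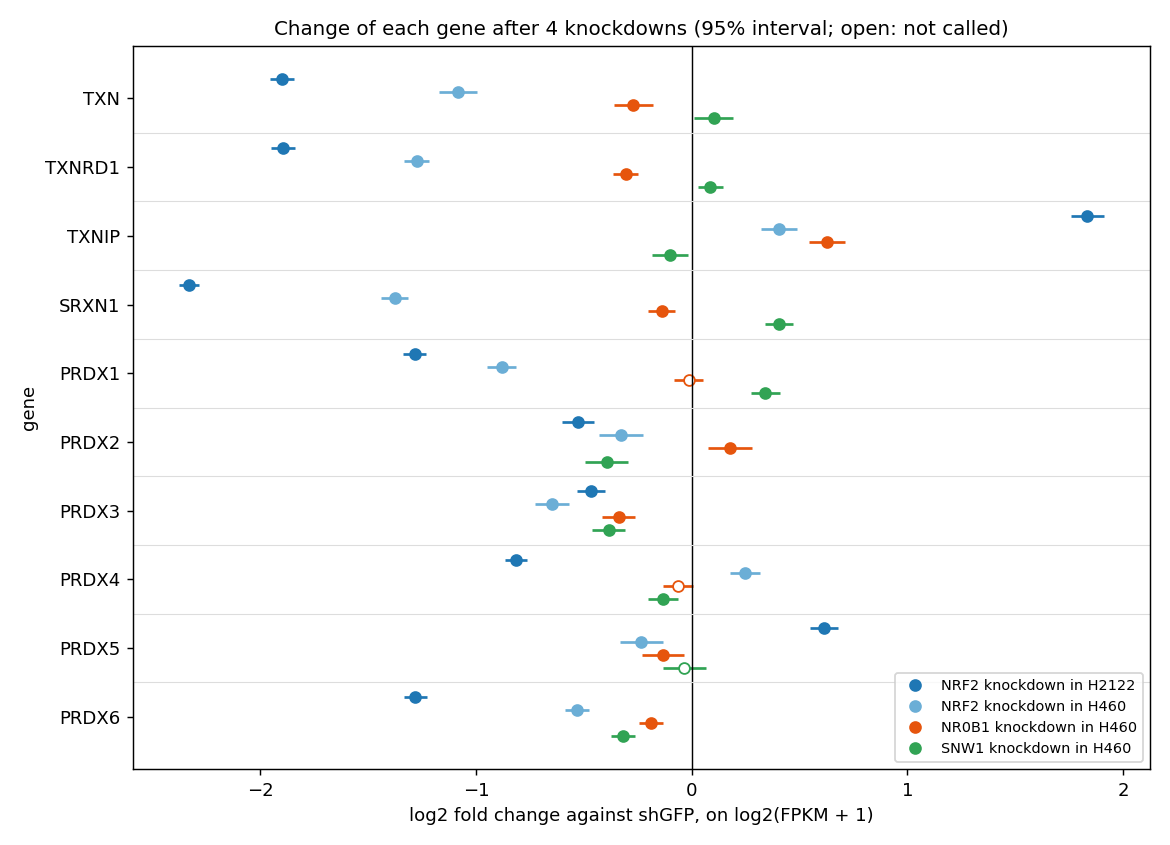
Log2 fold change against shGFP on the log2(FPKM + 1) scale (horizontal axis) for each gene (vertical axis) after 4 knockdowns, with 95% intervals from limma. Filled points were called at an adjusted p under 0.05 and open points were not; the points for NRF2 knockdown lie farthest from 0 for TXN, TXNRD1, SRXN1 and PRDX1.

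The H460 knockdowns were also compared with each other. Against NR0B1 knockdown, NRF2 knockdown left 8 genes lower and 1 higher, with 36.7% of tested genes lower and 37.8% higher; 49.3% of all calls were lower, and 60.8% on a common read total, which moved the median of all genes by -0.10. The median of the 10 was -0.42, against 0.01 over all genes. SRXN1 (-1.24 ± 0.0295), TXNRD1 (-0.97 ± 0.0269) and PRDX1 (-0.87 ± 0.0309) were lower after NRF2 knockdown, with limma adjusted p = 3.40e-13, 1.46e-12 and 1.48e-11. TXNIP was lower after NRF2 than after NR0B1 knockdown (-0.22 ± 0.0378, limma adjusted p = 0.000115), and PRDX4 was higher (0.31 ± 0.0321). PRDX5 was not called (-0.10 ± 0.0453, limma adjusted p = 0.0585), though its libraries did not overlap, and it was called on a common read total (-0.22, limma adjusted p = 0.000397) and without shNR0B1 replicate 1 (-0.12). Median-ratio scaling and voom called it too (-0.12 each).

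Against SNW1 knockdown, NRF2 knockdown left 7 genes lower and 2 higher, with 39.1% of tested genes lower and 39.6% higher (49.7% of all calls were lower, and 58.7% on a common read total), and a median of -0.24 against 0.01 over all genes. The gap was widest for SRXN1, at 138, 138 and 141 FPKM beside 469, 491 and 483 (-1.78 ± 0.0295, limma adjusted p = 8.46e-15). PRDX2 was not called (0.07, 95% interval -0.03 to 0.17, limma adjusted p = 0.197). Between the NR0B1 and SNW1 knockdowns, 4 genes were lower and 3 higher after NR0B1 knockdown, with 33.1% of tested genes lower and 34.7% higher, and a median of -0.03 against 0.01 over all genes. TXNIP (0.73 ± 0.0378, limma adjusted p = 1.94e-09) and PRDX2 (0.57 ± 0.0468, limma adjusted p = 1.62e-07) were higher after NR0B1 knockdown, and SRXN1 (-0.54 ± 0.0295), TXNRD1 (-0.39 ± 0.0269), TXN (-0.37 ± 0.0416) and PRDX1 (-0.36 ± 0.0309) were lower.

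Related genes were followed in 7 lists, described by counts beside the background shares above. Glutaredoxins use glutathione in place of thioredoxin, and glutathione reductase (GSR) recharges it. All 5 genes of that list fell after NRF2 knockdown in H2122, or 4 on a common FPKM total, and all 5 fell in H460. GSR went from 325 to 102 FPKM in H2122 (-1.66 ± 0.0227) and from 134 to 56.7 in H460 (-1.23 ± 0.0283), and GLRX3 fell in both (-0.93 and -0.86). After NR0B1 knockdown 3 of the 5 fell and 1 rose (2 and 2 on a common FPKM total), with GLRX2 at -0.57, and after SNW1 knockdown 1 fell and 3 rose, with GLRX at 0.34 and GSR at 0.23. The list's median was -0.93 and -0.45 after NRF2 knockdown in H2122 and H460, -0.20 after NR0B1 and 0.16 after SNW1 knockdown, beside 0.09, 0.01, -0.02 and -0.03 over all genes.

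NADPH feeds thioredoxin reductase. The list called NADPH suppliers here holds 8 enzymes that make it or, as TKT and TALDO1, belong to a pathway that does. Of these, 7 fell and 1 rose after NRF2 knockdown in each line. ME1, the malic enzyme, stood at -2.03 ± 0.0263 in H2122 and -0.93 ± 0.0377 in H460, and the transketolase TKT at -1.52 and -0.89. After NR0B1 knockdown none of the 8 was called lower and 6 rose (median 0.34, against -0.02 over all genes; 1 was lower with voom), among them PGD, an enzyme of the pentose phosphate pathway, from 461 to 641 FPKM (0.48 ± 0.0263). After SNW1 knockdown 2 fell and 4 rose (1 and 6 on a common total), with IDH2 at -0.77 and PGD at 0.46. The list's medians after NRF2 knockdown were -0.73 and -0.72.

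Of 16 other thioredoxin-related proteins, 15 were tested. After NRF2 knockdown 9 fell and 3 rose in H2122 (6 and 6 with a common FPKM total), and 8 fell and 5 rose in H460. TMX1, a thioredoxin-like protein of the endoplasmic reticulum membrane, was among those that fell in both lines (-0.98 ± 0.0298 in H2122 and -1.52 ± 0.0461 in H460). After NR0B1 knockdown 10 fell and 1 rose. The mitochondrial thioredoxin TXN2 went from 75.0 to 40.2 FPKM (-0.88 ± 0.0535, limma adjusted p = 7.65e-09). TMX4 went from 177 to 67.9 FPKM (-1.37 ± 0.0301) and TMX2 from 62.3 to 25.2 (-1.27 ± 0.0471). After SNW1 knockdown 11 fell and 3 rose, with TMX4 at -0.78 and TXNDC12 at -0.66. In the same order of knockdowns the list's medians were -0.19, -0.19, -0.31 and -0.25.

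Among the clients of thioredoxin is ribonucleotide reductase, which makes DNA precursors. Its subunits RRM1 and RRM2 fell after NRF2 knockdown, with log2 fold changes of -1.33 and -1.96 in H2122 and -1.43 and -1.86 in H460, while the p53-inducible subunit RRM2B rose by 1.04 ± 0.0343 in H2122. RRM1 and RRM2 also fell after SNW1 knockdown (-0.68 and -0.75), and RRM1 after NR0B1 knockdown (-0.46). The mean of RRM2 was also lower after NR0B1 knockdown, at 102 FPKM beside 125 in H460 shGFP. The whole client and repair list had 5 lower and 5 higher of 11 tested in H2122 and 6 and 6 of 12 in H460. It had 6 lower and 3 higher after NR0B1 knockdown (5 and 5 with a common total), and 4 and 3 after SNW1 knockdown (4 and 5), where SESN3 fell by 0.96. Of other peroxide and superoxide enzymes, 4 fell and 3 rose of 8 tested in H2122, with GPX2 at -1.53, SOD1 at -1.15 and GPX1 at 0.66. In H460 the counts were 4 and 1 of 6 after NRF2 knockdown, with SOD2 at -1.08, 2 and 2 after NR0B1 knockdown, with GPX3 at 0.85, and 4 and 1 after SNW1 knockdown (3 and 2 with a common total), with GPX8 at -0.56. Medians were 0.04, 0.03, -0.08 and 0.01 for the clients and -0.16, -0.31, -0.07 and -0.24 for these enzymes.

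TXNIP's relatives and the MondoA network held 8 tested genes. After NRF2 knockdown in H2122 2 fell and 5 rose (3 and 4 with median-ratio scaling, 0 and 7 on a common FPKM total), with ARRDC2 at 0.74 and ARRDC4, an arrestin-like gene that MondoA is known to drive, at 0.54 ± 0.0341. In H460 3 fell and 5 rose, with ARRDC3 at -1.11 and the glucose transporter SLC2A1 at 0.47. After NR0B1 knockdown 3 fell and 2 rose, or 2 and 3 with a common total, with SLC2A1 at 0.76 ± 0.0376. After SNW1 knockdown 2 fell and 2 rose (1 and 5 with a common total), with ARRDC3 at -0.80. The selenoprotein synthesis list, on which TXNRD1 depends, had 2 lower and 4 higher of 7 in H2122 (2 and 2 with median-ratio scaling) and 3 and 2 in H460 (3 and 3 on a common FPKM total) after NRF2 knockdown. SECISBP2, which reads the selenocysteine signal, rose by 1.14 ± 0.0396 and 0.47 ± 0.0414. The list had 4 lower and 2 higher after both NR0B1 and SNW1 knockdown, or 3 and 2, and 2 and 2, on a common read total, and 1 and 2 after NR0B1 knockdown on a common FPKM total. Medians were 0.37, 0.28, 0.02 and 0.05 for TXNIP's relatives and 0.14, -0.04, -0.18 and -0.14 for selenoprotein synthesis.

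Across the 18 knockdown libraries the 10 genes did not share a single pattern. As a description over libraries that fall into 6 groups of 3, with Pearson's r of log2(FPKM + 1), TXN followed PRDX1 (0.96) and SRXN1 (0.96), SRXN1 followed TXNRD1 (0.88), and PRDX4 followed PRDX6 (0.92). TXNIP ran against TXNRD1 (-0.86) and PRDX5 against PRDX6 (-0.76). Many other genes lay as close or as far apart. Ranked from the highest r among the genes compared below, SRXN1 was 100 and PRDX1 124 for TXN. TXNRD1 was 514 for SRXN1, and PRDX6 was 702 for PRDX4. Toward the lowest r, TXNRD1 was 8433 for TXNIP and PRDX5 was 6808 for PRDX6. Among 8605 genes with a mean of at least 5 FPKM, those with the pattern most like TXN were GOT1, NASP and COA6 (0.99 each), those most like TXNRD1 were LYAR, BCAT1 and DHX9 (0.99 each), and those most like SRXN1 were XPOT, SSB and MKI67 (0.99 each). EXOC1, ZBED6 and BBS10 were most like TXNIP (0.97, 0.95 and 0.95). The nearest to PRDX1 were RBM28, NUP188 and HJURP (0.99 each), to PRDX2 H2AFX, IQGAP3 and MT2A (0.94, 0.94 and 0.93), and to PRDX3 ATP5H, CENPI and MNF1 (0.98 each). PRDX4 lay nearest to AIFM1, TOR3A and CRTAP (0.996, 0.996 and 0.995), PRDX5 to H1F0, GPX1 and CRIPT (0.96, 0.95 and 0.94), and PRDX6 to PROCR, GALNT13 and ACAT1 (0.997, 0.996 and 0.995).

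Compound-treated H460 cells are given as ratios to the mean of the 3 DMSO libraries, because gene lengths behind those columns differ from the knockdown columns. BPK29 lowered 4 genes and raised 1, with 5 not called, where 29.3% of 11461 tested genes were called lower and 21.1% higher; 58.1% of all calls were lower, and 38.8% on a common read total. The median of the 10 was -0.02, the same to 2 decimals as over all genes. TXNIP changed most. Its BPK29 libraries stood at 0.793, 0.788 and 0.789 of the DMSO mean, below the DMSO libraries at 0.975, 0.983 and 1.04 (log2 fold change -0.32 ± 0.0301, limma adjusted p = 2.36e-05). SRXN1 stood at 0.831, 0.851 and 0.824 (-0.26 ± 0.0212, limma adjusted p = 1.15e-05), and PRDX3 at 0.907, 0.921 and 0.884 (-0.14 ± 0.0272, limma adjusted p = 0.00177). PRDX6 stood at 0.927, 0.926 and 0.933 (-0.11 ± 0.0172, limma adjusted p = 0.000690), and was not called on a common total (-0.044). PRDX5 rose to 1.15, 1.06 and 1.08 (0.13 ± 0.0332, limma adjusted p = 0.00897). None of these 5 overlapped its DMSO libraries, which lay between 0.975 and 1.04 of their mean. TXNRD1 did not overlap its DMSO libraries either and was not called, and the share of all genes without overlap was not computed. TXN, PRDX1, PRDX2 and PRDX4 overlapped the DMSO libraries, with 95% intervals from -0.08 to 0.10 on the log2 scale, and TXNRD1 (0.04 ± 0.0191, limma adjusted p = 0.155) was called on a common total (0.098), as was PRDX4 (0.099, limma adjusted p = 0.0158).

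Under BPK9 none of the 10 genes was called by limma, where 0.00873% of tested genes were called lower and 0% higher. Their median was 0.01, against -0.002 over all genes. At an unadjusted p under 0.05, 1 member was lower and 1 higher, and 890 and 835 of all tested genes were. The members were SRXN1, at 0.937, 0.955 and 0.954 of the DMSO mean (-0.08, 95% interval -0.12 to -0.03), and PRDX5, at 1.08, 1.10 and 1.05 (0.10, 95% interval 0.03 to 0.18). With voom on recovered reads SRXN1 was called lower (-0.07, adjusted p = 0.0137), beside 127 lower and 128 higher genes in all. The 95% intervals of the other 8 members lay between -0.08 and 0.10 on the log2 scale. The BPK9 libraries of 4 of the 10 genes (TXNRD1, SRXN1, PRDX5 and PRDX6) did not overlap DMSO. The share of all tested genes without overlap was not computed, so this count is not read as a change.

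The compounds were compared with each other at the same dose and time, over all tested genes. BPK29 left 4 genes lower and 1 higher than BPK9, where 27.2% of tested genes were lower and 19.7% higher; 58.0% of all calls were lower, and 40.9% on a common read total. Their median was -0.04, against -0.01 over all genes. TXNIP (-0.31 ± 0.0301, limma adjusted p = 4.48e-05), SRXN1 (-0.18 ± 0.0212, limma adjusted p = 0.000111) and PRDX3 (-0.17 ± 0.0272, limma adjusted p = 0.000731) were lower under BPK29. PRDX6 was lower too (-0.08 ± 0.0172, limma adjusted p = 0.00501), but was not called on a common total (-0.027). TXNRD1 was higher (0.08 ± 0.0191, limma adjusted p = 0.00866). No difference was called for TXN, PRDX1, PRDX2, PRDX4 and PRDX5, whose 95% intervals lay between -0.10 and 0.10 on the log2 scale.

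**Figure D5:**
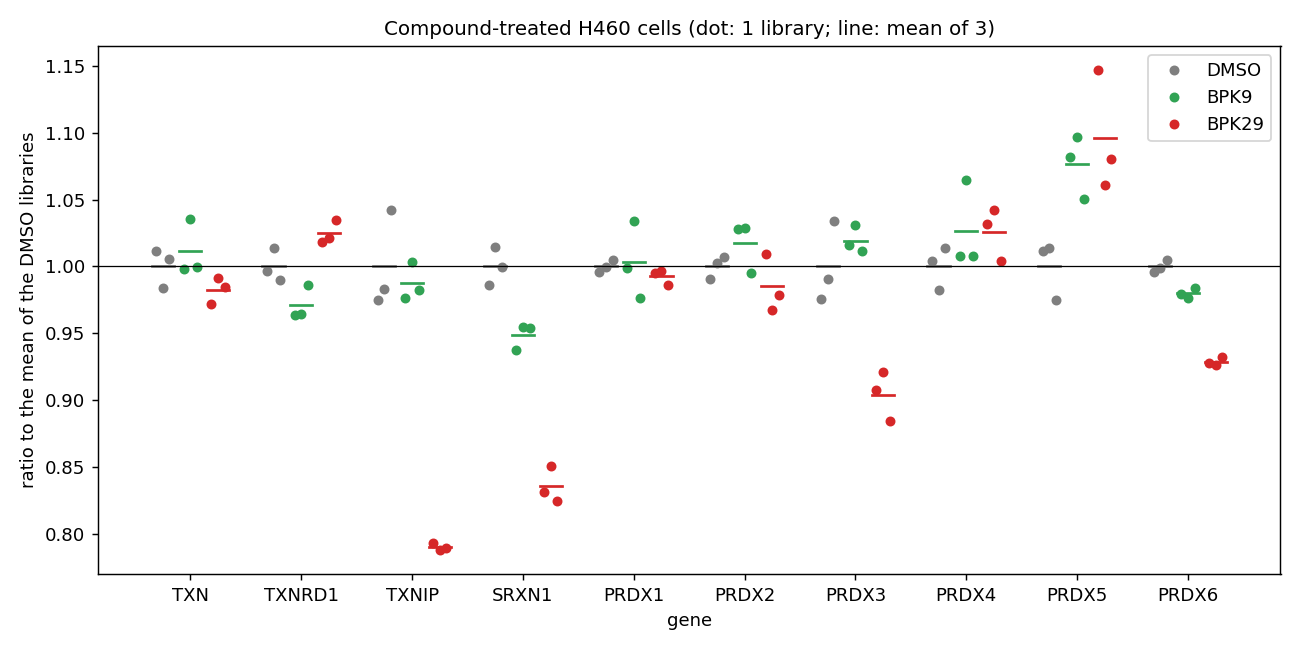
Level in each compound library as a ratio to the mean of the 3 DMSO libraries (vertical axis, not starting at 0) for each gene (horizontal axis). Dots are libraries and short lines are means of 3; BPK29 libraries of TXNIP lie at 0.788 to 0.793 and those of SRXN1 at 0.824 to 0.851, below all DMSO libraries.

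The related lists under BPK29 had 7 lower and 1 higher of 15 thioredoxin-related proteins (5 and 3 on a common total), with TMX4 at -0.31, and 4 lower and none higher of 8 NADPH suppliers (3 and 1), with TKT at -0.26. The list of TXNIP's relatives and the MondoA network had 1 lower and 5 higher of 8 (0 and 6), with the arrestin-like ARRDC3 at 0.37 and MLXIPL, which encodes the transcription factor ChREBP, at 0.50. Glutaredoxins had 2 lower and 2 higher of 5, with GLRX2 at 0.22. Other peroxide enzymes had 2 and 2 of 6, with GPX8 at -0.42, and clients 5 and 2 of 11 (3 and 3 on a common total), with SESN3 and RRM1 at -0.34 each. Selenoprotein synthesis genes had 2 lower and 4 higher of 7, with TRNAU1AP at 0.34. In this order the medians were -0.09, -0.08, 0.28, -0.03, -0.05, -0.11 and 0.16. Under BPK9 limma called none of the 60 genes tested in the 7 lists, with 4 lower and 4 higher at an unadjusted p under 0.05, and voom called 1 peroxide enzyme and 1 NADPH supplier higher.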

How the data were processed

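Polyadenylated RNA of 27 libraries, 18 with hairpins and 9 with compounds, was used. The authors deposited 1 table of FPKM values; the tools named per the submitters' processing notes include featureCounts, STAR and DESeq2, with build hg19, and with versions and annotation not given in the sources used here. The ChIP peak list was not used. Whole reads were recovered from the steps in the FPKM values for 100% of genes above 0 in every library (tolerance 0.02 reads), and the knockdown columns follow median-ratio scaling. Of 17443 genes with a length behind both column sets, 3 had equal lengths and 54.5% were over 2-fold apart. The members' compound levels are therefore given as ratios. The limma fits of the compound columns still used log2(FPKM + 1) and the filter on low values, and both depend on these lengths.

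Tests were made with limma 3.58.1 (R 4.3.3), with a trend, on log2(FPKM + 1), for genes at 1 FPKM or more in at least 3 of the fitted libraries, with Benjamini-Hochberg adjustment over all genes and calls at an adjusted p under 0.05. Fold changes are on the log2(FPKM + 1) scale, which understates changes of low genes. The 12 H460 knockdown, 6 H2122 and 9 compound libraries were each fitted together, and the interaction and shGFP comparisons used both lines. The fits and the read recovery were tested on simulated data. Named genes are the 10 members, the targeted genes, up to 3 called genes per list and comparison with the largest change, and the 3 nearest patterns per member; EID3, MMACHC and TRMT112 were added as overlapping neighbours. Pseudogenes named after TXN, SRXN1 and PRDX1 to PRDX5 are listed in RefSeq and none is in the table, so reads shared with them are uncertain. Members and lists were chosen with earlier results of these data known. In bulk RNA, fewer cells of a type and less RNA per cell cannot be told apart. Alternatives were another pseudocount, no filter, other scalings, voom, no trend, only the groups compared, a replicate block and leaving out single libraries; rescaling to a common FPKM total was added after seeing the data.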

Additional observations from a re-analysis of the deposited data

Results flagged for a closer look

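The response to NRF2 knockdown differed between H2122 and H460 for all 10 genes, by an interaction term in limma (H2122 minus H460, log2 scale, 3 libraries per group), where 34.3% of tested genes had a lower and 37.4% a higher value. The difference was -0.81 for TXN, -0.62 for TXNRD1, 1.43 for TXNIP and -0.95 for SRXN1. It was -0.40 for PRDX1, -0.20 for PRDX2, 0.18 for PRDX3, -1.06 for PRDX4, 0.85 for PRDX5 and -0.75 for PRDX6. PRDX4 fell in H2122 and rose in H460, and PRDX5 rose in H2122 and fell in H460, with no overlap between the libraries compared. The lines were sampled at 24 h and 72 h, and line and time cannot be told apart. NFE2L2 itself fell further in H2122 (difference -0.44 ± 0.0532, limma adjusted p = 8.07e-06), and its part in these differences was not tested.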

How the results depend on the processing

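The calls of the 10 genes after both NRF2 knockdowns held under every setting tried. After rescaling to a common total, 3 members were lower in the SNW1 knockdown and 3 higher under BPK29, with 3644 genes higher in all under BPK29; under BPK9 it called 3 genes lower and 6 higher. Median-ratio scaling gave 2 members higher under BPK29 and voom 3. For BPK9, voom called 1 member lower and 127 genes lower and 128 higher, a fit without a filter 1 gene higher, and a fit of only the groups compared 2 lower; leaving out single libraries gave 0 to 1 genes higher. A common FPKM total, added after seeing the data and run on the knockdown columns, left 3 members lower in each of the NR0B1 and SNW1 knockdowns. It turned PRDX1 in the NR0B1 knockdown to 0.12, and TXN and PRDX5 between the shGFP groups to 0.069 and 0.044. It shifted the median of all genes by 0.11 in the NR0B1 knockdown and by 0.16 between the shGFP groups, and a common total shifted it by -0.10 in the NRF2 against SNW1 comparison. The cause of these changes was not tested.

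Of 30 same-numbered pairs of libraries, 4 had deviations correlated over 0.1 (range -0.0933 to 0.130). In 16 of the 30 the correlation was higher than with any other number. These values do not settle whether replicate numbers pair the libraries. With a replicate block 1 member call was lost, TXN in the SNW1 knockdown (0.10, limma adjusted p = 0.0508). TXN in that comparison was also lost with no filter, with no trend and in a fit of only the groups compared, and TXNIP there with no trend. A fit of only the groups compared added 3 calls, PRDX5 between the NRF2 and NR0B1 knockdowns and PRDX4 and PRDX5 between the NR0B1 and SNW1 knockdowns. Median-ratio scaling and voom also called PRDX5 between the NR0B1 and SNW1 knockdowns (-0.12 each). Leaving out single libraries left 760 of the members' values on the same side of the threshold, ended 17 calls and added 3, for PRDX5 and PRDX4 after NR0B1 knockdown, TXN, TXNRD1 and TXNIP after SNW1 knockdown, PRDX2 in the interaction, TXN between the shGFP groups, PRDX5 between the NRF2 and NR0B1 knockdowns, and PRDX4 between the NR0B1 and SNW1 knockdowns. Distances of NR0B1 peaks to the genes were planned and not run. Every member had at least 1074 reads per knockdown library and 1812 per compound library, and the effect of depth on the calls was not tested.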

Other observations

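Some enzymes outside the peroxiredoxin family that remove peroxide also differed between the control lines. Of 8 other peroxide and superoxide enzymes tested, 4 were lower and 3 higher in H2122 shGFP. Over all tested genes, 41.1% were called lower and 44.4% higher. The list's median log2 difference was -0.045, against 0.03 over all genes. The 3 higher genes were GPX2, GPX3 and CAT. GPX2, a glutathione peroxidase known from gut and lung epithelium, averaged 339 FPKM in H2122 shGFP and 0.0788 in H460 shGFP. GPX3, a secreted glutathione peroxidase, averaged 626 FPKM in H2122 and 61.2 in H460 (log2 difference 3.33 ± 0.0457, limma adjusted p = 3.37e-16). Catalase (CAT), which splits hydrogen peroxide in peroxisomes, averaged 18.6 FPKM in H2122 shGFP and was listed at 0 in the 3 H460 shGFP libraries. The glutaredoxin GLRX was higher in H460, at 105 FPKM against 31 in H2122 (-1.73 ± 0.0395, limma adjusted p = 7.39e-14), while glutathione reductase GSR was higher in H2122 (1.27 ± 0.0270).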
